A study of Saccharomyces cerevisiae with 2 samples.

Results

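The 10 genes described here encode iron-sulfur proteins that work in the cytosol and nucleus of budding yeast: RLI1, ELP3, TYW1, DPH1, DPH2, PRI2, RAD3, NTG2, DNA2 and CHL1. They were chosen by name from the iron-sulfur proteins of translation, of tRNA and diphthamide modification, and of DNA replication and repair, and all 10 were found among the 6142 named rows of the table. Both cultures were of BY4741, a haploid laboratory yeast of a mating type, and were in mid-log growth in rich medium with glucose (YPD). The paraquat culture received 2.5 mM paraquat for 8 h and the untreated culture received none, with 1 RNA library from each. Paraquat is a herbicide that is reduced in cells and passes electrons to oxygen, which forms superoxide. No time is labelled for the untreated culture, so paraquat and time in culture cannot be told apart.

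An iron-sulfur cluster is a small inorganic cofactor of iron and sulfide, usually held by cysteines. Its core is made in mitochondria, and the cytosolic iron-sulfur assembly machinery builds clusters outside them and hands them to enzymes of the cytosol and nucleus. In metabolic dehydratases such as the isomerase Leu1 the cluster is open to solvent and takes part in catalysis, and superoxide can oxidize and break it. Among the proteins described here, clusters serve radical reactions in Elp3, in Tyw1 and in the Dph1-Dph2 pair. In Pri2, Rad3, Ntg2, Dna2 and Chl1 the cluster sits inside a fold that binds nucleic acid or moves on it. Rli1 carries a pair of clusters beside its ATPase domains. The data are transcript levels, and neither the clusters nor the enzyme activities were measured.

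Named genes took 165264107 reads in the paraquat library and 164909400 in the untreated library. Values are normalized reads, that is, each gene's reads divided by a size factor for its library, as deposited. With 1 library per culture there is no spread between cultures to set a difference against, so changes are described and not tested. Every interval below is a 95% counting interval, which covers counting error only and takes reads as independent. In bulk RNA, fewer cells that express a gene and less RNA per cell cannot be told apart. Scaling by each library's total gene reads, instead of the deposited size factors, moves every log2 change up by 0.26, so positions are also given relative to the median gene, which no scaling alters. The mating type was checked on marker genes. The a-cell genes STE2 and MFA1 had 84794 and 21269 normalized reads in the paraquat library, against 105963 and 31789 in the untreated library. The alpha-cell genes MF(ALPHA)1, MF(ALPHA)2 and STE3 had 42.0, 1461 and 1175 in the paraquat library, against 54.8, 1066 and 719 in the untreated library. They were far lower than STE2 and MFA1 in both. LEU2, URA3, MET15 and HIS3, genes for nutrients that BY4741 cannot make, were expected to be low. LEU2, URA3 and MET15 had no row. HIS3 had 12482 normalized reads in the paraquat library, against 17852 in the untreated library. HIS3 was thus not low, and the reason was not tested.

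The 10 genes described here stayed close to their untreated levels, with TYW1 the exception. TYW1 was 1.67-fold higher after paraquat, and the other 9 were less than 25% higher and less than 20% lower, as were 65.9% of all genes. At least 2-fold higher were 0 of 10 members and 3.08% of the 5973 genes whose mean over both libraries reached 50 normalized reads. At least 2-fold lower were 0 of 10 members and 1.52% of those genes. All 10 members passed that minimum. At least 25% higher was 1 member, beside 17.1% of genes, and at least 20% lower, the same distance on the log scale, were 0 members, beside 17.0% of genes. Scaled to total gene reads, those member counts become 6 higher and 0 lower, beside 41.4% and 5.98% of genes.

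The members' median log2 change was 0.17, beside -0.003 for all genes, and 7 of 10 lay above 0, beside 49.7% of genes. The 3 members below 0, beside 50.3% of genes, were ELP3, DPH2 and CHL1. Scaled to total gene reads, ELP3, DPH2 and CHL1 lie above 0 too, as do 78.6% of all genes. In either scaling these 3 lie below the median gene. In the deposited scaling the median size of the change, sign set aside, was 0.18 on the log2 scale for the members and 0.22 for all genes. That order depends on the scaling. Scaled to total gene reads, every member lies above 0 and their median is 0.43, and the matching size for all genes was not counted. By the authors' deposited values, 0 members and 0.00% of all 6142 genes had an adjusted p under 0.05. The unadjusted p of the authors' deposited table was under 0.05 for 0 members and 2.12% of genes, and that of the members lay between 0.121 for TYW1 and 0.925 for NTG2.

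**Figure D1:**
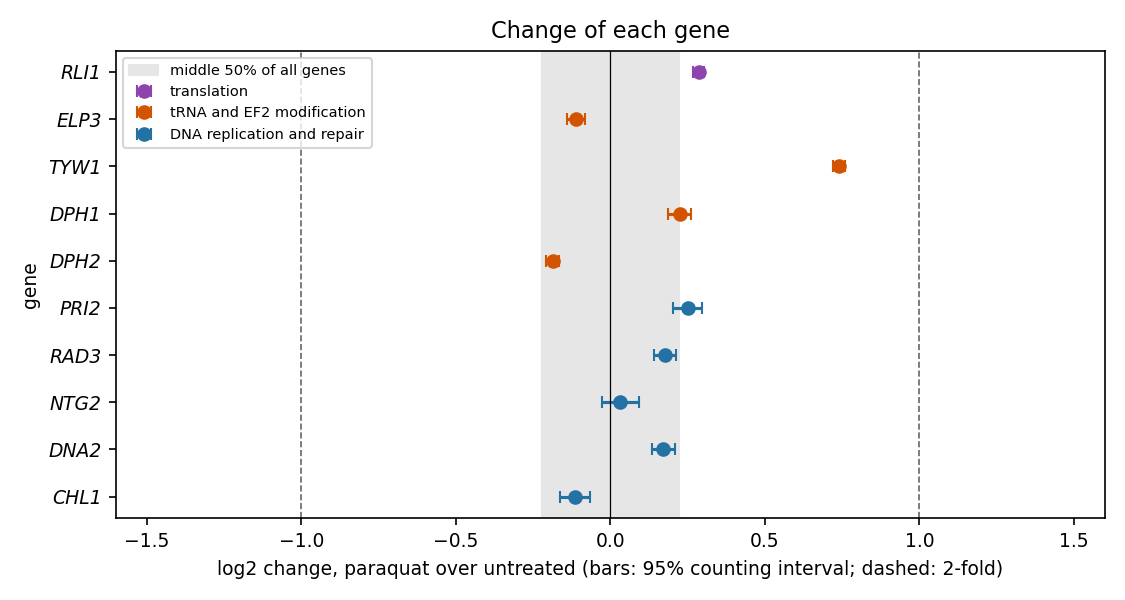
Log2 change of each gene, paraquat over untreated (horizontal axis), for the 10 iron-sulfur protein genes (vertical axis), coloured by role. Points are the ratio of the 2 libraries, bars the 95% counting interval, the grey band the middle 50% of all genes and dashed lines 2-fold in the deposited scaling. TYW1 stands at 0.74, and the other 9 lie between -0.19 and 0.29; in total-read scaling every point, with the band, moves up by 0.26, which puts ELP3, DPH2 and CHL1 above 0.

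Levels split by role. Per kilobase of coding length, RLI1, ELP3, TYW1, DPH1 and DPH2 lay above the median protein-coding gene in both libraries, and PRI2, RAD3, NTG2, DNA2 and CHL1 lay below it in both. That median was 7611 normalized reads per kilobase in the paraquat library and 7566 in the untreated library. The highest member was TYW1 in the paraquat library, at 27786 normalized reads per kilobase, against RLI1 in the untreated library, at 22309. The lowest was CHL1 in the paraquat library, at 2469, against DNA2 in the untreated library, at 2325. The genes thus spanned 11.3-fold in level in the paraquat library and 9.59-fold in the untreated library.

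**Figure D2:**
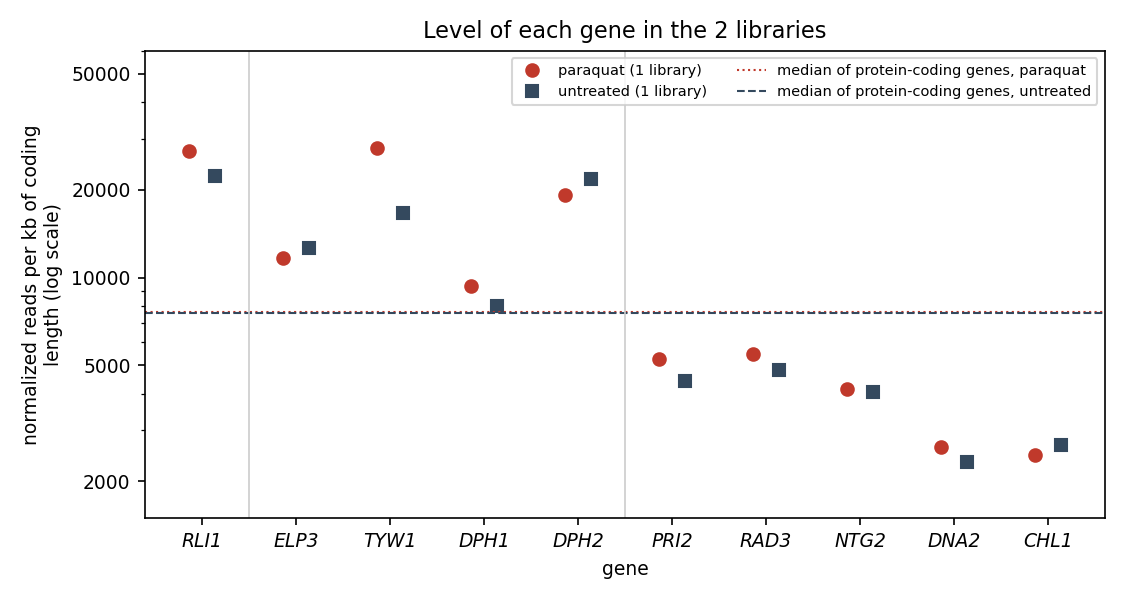
Normalized reads per kilobase of coding length (vertical axis, log scale) for each of the 10 genes (horizontal axis), with paraquat as red circles and untreated as dark squares, 1 library each, and no error bars because there are no replicates. Horizontal lines mark the median of protein-coding genes, 7611 for paraquat and 7566 for untreated; the 5 genes of translation and modification lie above it and the 5 genes of DNA replication and repair below it.

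RLI1 (YDR091C) is essential and encodes an ATPase of the ABC family that splits ribosomes after termination so that their subunits can be used again. It had 49664 normalized reads in the paraquat library and 40759 in the untreated library, a 1.22-fold higher level after paraquat (1.20 to 1.23). A lower change was seen in 80.3% of all genes, and in 87.3% of genes of similar mean level (the same one of 10 equal classes). The genes next to it on the chromosome, ILT1 and UBC13, were at 1.41-fold and 1.33-fold. Chromosomal neighbours are given only for RLI1 and TYW1, and a link between neighbouring genes was not tested.

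The partners of Rli1 lay on both sides of it. Of 10 partner genes 4 lay above 0 and 6 below, beside 49.7% and 50.3% of all genes, with a median log2 change of -0.03 that turns to 0.23 when scaled to total gene reads. LTO1, part of the adaptor that brings Rli1 to the cluster assembly machinery, was the highest, with 5863 normalized reads in the paraquat library and 3905 in the untreated library, 1.5015-fold higher (1.44 to 1.56). YAE1, the other adaptor gene, was at 1.03-fold. HCR1, an initiation factor subunit gene that also acts in termination, was 1.32-fold higher. SUP45, the release factor that recognizes stop codons, was at 0.804-fold, and SUP35, its GTPase partner, at 0.984-fold. The rescue factor genes DOM34 and HBS1 were at 1.11-fold and 0.924-fold, and TMA64, which removes tRNA and mRNA from the small subunit after termination, was the lowest at 0.744-fold.

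ELP3 (YPL086C) encodes the catalytic subunit of Elongator, which starts the side chain that wobble uridines of many tRNAs carry. ELP3 had 19607 normalized reads in the paraquat library and 21177 in the untreated library, 0.926-fold (0.908 to 0.944). The other core subunit genes were IKI3 at 0.978-fold, ELP2 at 1.07-fold, ELP4 at 0.905-fold, IKI1 at 1.27-fold and ELP6 at 1.11-fold. In the paraquat library the 6 subunits lay between 9886 (ELP4) and 13658 (ELP2) normalized reads per kilobase, against 8033 (IKI1) to 12760 (ELP2) in the untreated library. ELP3 was among the higher of them in the untreated library, at 12650 per kilobase, and at 11713 in the paraquat library.

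KTI11 (YBL071W-A) stood apart from the rest of the Elongator genes. It encodes the small protein, also called Dph3, that passes electrons to Elp3 and to the Dph1-Dph2 pair, so it serves 3 of the iron-sulfur proteins described here. KTI11 had 7691 normalized reads in the paraquat library and 3684 in the untreated library, 2.09-fold higher (2.01 to 2.17), and a lower change was seen in 97.3% of all genes. It overlaps the open reading frame YBL071C, which had 3627 normalized reads in the paraquat library and 1801 in the untreated library, 2.01-fold higher. The sources used here do not say whether the counting kept strand, so reads of these 2 overlapping frames may not be told apart. Of the 12 Elongator and regulator genes, KTI11 alone passed 2-fold, beside 3.08% of all genes upward and 1.52% downward. HRR25, a kinase gene, was the lowest of the 12 at 0.855-fold, and their median log2 change was 0.06. The later steps of the same modification had a median of 0.08 over 8 genes, with 0 past 2-fold, beside the same shares of all genes. NCS6, a thiolation enzyme gene, was the highest of these at 1.26-fold, and TUM1, a sulfur carrier gene, the lowest at 0.929-fold.

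TYW1 (YPL207W) encodes the radical enzyme that forms the third ring of wybutosine, the bulky base next to the anticodon of phenylalanine tRNA. It had 67603 normalized reads in the paraquat library and 40477 in the untreated library, 1.67-fold higher (1.65 to 1.69). It was the largest change among the 10 genes and lay inside 2-fold. A lower change was seen in 94.7% of all genes and in 94.8% of the class of highest mean level, to which it belongs and whose median log2 change was -0.31. Scaled to total gene reads, TYW1 came to 1.999-fold. At least 1.5-fold higher, TYW1 was 1 of 10 members, beside 7.75% of all genes, and at least 1.5-fold lower were 0 members, beside 5.88%. The genes next to it were at 1.08-fold (RKM1) and 0.815-fold (PGC1).

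The other genes of wybutosine synthesis did not share the size of the TYW1 change. TRM5, the methyltransferase of the step before Tyw1, was at 1.10-fold (1.07 to 1.12). TRM12, of the step after it, was the highest of the other pathway genes at 1.12-fold, and PPM2, which acts last, was at 1.09-fold. TYW3, a methyltransferase between them, was the lowest, with 6527 normalized reads in the paraquat library and 7870 in the untreated library, 0.829-fold (0.803 to 0.857). TYW1 also had the highest level of the pathway per kilobase in both libraries: 27786 in the paraquat library and 16637 in the untreated library, against at most 13153 (paraquat) and 11998 (untreated) for TRM5.

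DPH1 (YIL103W) and DPH2 (YKL191W) encode partner subunits of the enzyme that starts diphthamide, a modified histidine of the translation elongation factor EF2 and the target of diphtheria toxin. They lay on opposite sides of the median gene. DPH1 had 11952 normalized reads in the paraquat library and 10236 in the untreated library, 1.17-fold higher (1.14 to 1.20). DPH2 had 30712 normalized reads in the paraquat library and 34964 in the untreated library, 0.878-fold (0.865 to 0.892). Per kilobase, DPH1 stood at 0.489 of the DPH2 level in the paraquat library and at 0.368 in the untreated library. DPH1 took 28.0% of the reads on the pair in the paraquat library (27.6 to 28.4, exact Clopper-Pearson) and 22.6% in the untreated library (22.2 to 23.1), a share that no scaling alters.

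Other genes of the diphthamide pathway included the larger changes. JJJ3, also called Dph4, a J-domain protein of the same step, had 3150 normalized reads in the paraquat library and 1938 in the untreated library, 1.63-fold higher (1.53 to 1.72). With KTI11, which belongs to this pathway too, 2 of the 7 listed genes were at least 25% higher, beside 17.1% of all genes, and 1 of them was past 2-fold, beside 3.08%. DPH5, the methyltransferase of the next step, was at 1.13-fold, RRT2 at 1.21-fold and DPH6, the amidase of the last step, at 0.936-fold. EFT1 and EFT2, which encode the same EF2 protein, were at 0.793-fold and 0.752-fold and were the 2 listed genes at least 20% lower, beside 17.0% of all genes. In total-read scaling 4 of the 7 were at least 25% higher and 0 at least 20% lower, beside 41.4% and 5.98% of all genes. Reads may be shared between these near-identical genes, so their separate values are uncertain. Genes of their class of mean level had a median log2 change of -0.31.

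PRI2 (YKL045W) encodes the large subunit of primase, which lays down the RNA that starts each new DNA strand. It had 8320 normalized reads in the paraquat library and 6999 in the untreated library, 1.19-fold higher (1.15 to 1.23). PRI1, the catalytic primase subunit, had 6575 normalized reads in the paraquat library and 7038 in the untreated library, 0.934-fold. Per kilobase, PRI2 stood at 0.981 of the PRI1 level in the paraquat library and at 0.771 in the untreated library. The polymerase alpha subunits POL1 and POL12, which extend the primer, were at 1.06-fold and 1.08-fold. The 9 listed subunits of polymerases delta, epsilon and zeta had a median log2 change of 0.08. DPB2 of epsilon was the highest of them at 1.27-fold and REV3, the catalytic subunit of zeta, the lowest at 0.921-fold.

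RAD3 (YER171W) and CHL1 (YPL008W) encode related helicases that move from 5′ to 3′ on DNA. RAD3, the TFIIH helicase of nucleotide excision repair and the yeast counterpart of human XPD, had 12742 normalized reads in the paraquat library and 11274 in the untreated library, 1.13-fold higher (1.10 to 1.16). CHL1, which acts in sister chromatid cohesion, had 6385 normalized reads in the paraquat library and 6910 in the untreated library, 0.924-fold (0.893 to 0.956). Both intervals leave out 1, on opposite sides, in the deposited scaling, in which 86.7% of all genes have an interval that leaves out 1. RAD3 took 66.6% of the reads on the pair in the paraquat library (66.0 to 67.3) and 62.0% in the untreated library (61.3 to 62.7).

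The other TFIIH genes had a median log2 change of 0.002 over 9. TFB2 was the highest of them at 1.30-fold and KIN28, the kinase subunit, the lowest at 0.870-fold, while SSL2, the second TFIIH helicase, was at 1.06-fold. Nucleotide excision repair factors outside TFIIH had a median of -0.06 over 10, which turns to 0.20 in total-read scaling. RAD33 was the highest of these at 1.51-fold and RAD23 the lowest at 0.796-fold.

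All 16 listed genes of sister chromatid cohesion lay above 0, beside 49.7% of all genes, or 78.6% in total-read scaling, in which CHL1 lies above 0 too. Their median log2 change was 0.18, and 4 were at least 25% higher, beside 17.1% of all genes. Past 2-fold were 0 of the 16, beside 3.08% of all genes upward and 1.52% downward. In total-read scaling 13 of the 16 were at least 25% higher, beside 41.4% of all genes. CTF18, of the clamp loader that acts in cohesion, was the highest, with 8904 normalized reads in the paraquat library and 5994 in the untreated library, 1.49-fold higher (1.44 to 1.54). The cohesin subunit MCD1 followed at 1.43-fold, then the cohesin regulator PDS5 at 1.40-fold and the cohesin subunit IRR1 at 1.30-fold. CTF4, which ties Chl1 to the replication fork, was at 1.11-fold, and the cohesin subunit SMC3 was the lowest at 1.01-fold.

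NTG2 (YOL043C) encodes a DNA glycosylase that cuts out oxidized pyrimidines, and its homolog Ntg1 lacks the cluster. In the deposited scaling NTG2 had the smallest change of the 10 genes, with 4754 normalized reads in the paraquat library and 4649 in the untreated library, 1.02-fold (0.982 to 1.07), and its interval alone among the 10 held 1, while 86.7% of all genes had an interval that left out 1. In total-read scaling NTG2 came to 1.22-fold, and DPH2, CHL1 and ELP3 had smaller changes. NTG1 had 6641 normalized reads in the paraquat library and 6312 in the untreated library, 1.05-fold. NTG2 took 41.7% of the reads on the pair in the paraquat library (40.9 to 42.6) and 42.4% in the untreated library (41.4 to 43.4), and these counting intervals overlap. Of the 8 listed base excision repair genes, 1 was at least 25% higher and 1 at least 20% lower, beside 17.1% and 17.0% of all genes. In total-read scaling 4 were higher and 0 lower by these marks, beside 41.4% and 5.98% of all genes. In the deposited scaling the higher was OGG1, the glycosylase for oxidized guanine, with 6435 normalized reads in the paraquat library and 4285 in the untreated library, 1.502-fold higher (1.44 to 1.56). The lower was TPP1, a DNA 3′ phosphatase gene, at 0.752-fold, and the list's median log2 change was -0.02, which turns to 0.24 in total-read scaling.

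DNA2 (YHR164C) encodes a nuclease and helicase that trims flaps of Okazaki fragments and resects broken ends. It had 11963 normalized reads in the paraquat library and 10623 in the untreated library, 1.13-fold higher (1.10 to 1.16), and a lower change was seen in 70.6% of all genes. RAD27, the flap nuclease that works beside it, was also at 1.13-fold, and the resection nuclease gene EXO1 was the highest of the list, at a log2 change of 0.32. The single-strand binding protein genes RFA1, RFA2 and RFA3 were at 0.876-fold, 0.938-fold and 0.932-fold. RNH202, a subunit of RNase H2, was the lowest, with 4415 normalized reads in the paraquat library and 6539 in the untreated library, 0.675-fold (0.650 to 0.701). The catalytic RNase H2 gene RNH201 was at 1.24-fold.

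**Figure D3:**
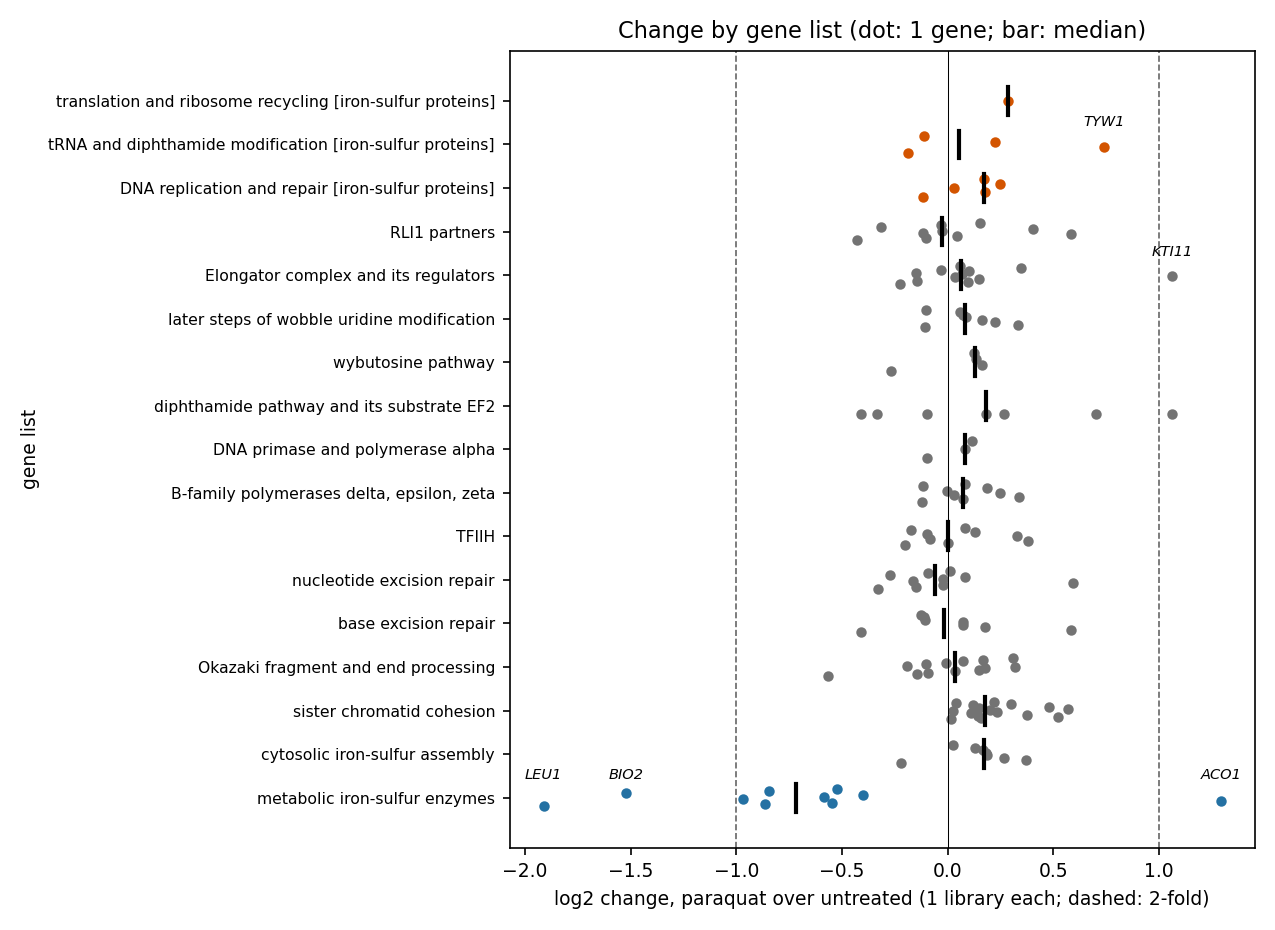
Log2 change, paraquat over untreated (horizontal axis), of each gene (dots) in the 3 role groups of iron-sulfur proteins (orange), 13 partner lists (grey) and the metabolic iron-sulfur enzymes (blue), with the list median as a black bar and dashed lines at 2-fold. The medians of the role groups and partner lists lie between -0.06 and 0.29 in the deposited scaling and that of the metabolic enzymes at -0.71; total-read scaling moves all dots up by 0.26 and turns the medians of the RLI1 partners, nucleotide excision repair and base excision repair above 0.

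The genes that put clusters into these proteins lay within 2-fold in the deposited scaling, as did 95.4% of all genes. Of 8 genes of the cytosolic assembly machinery 7 lay above 0, beside 49.7% of all genes. In total-read scaling CIA1, the gene below 0, lies above 0 too, beside 78.6% of all genes. The median log2 change of the 8 genes was 0.17, the same to 2 decimals as that of the 10 genes the machinery serves. NAR1, an iron-sulfur protein that links the early and late parts of the machinery, was the highest at 1.29-fold and the 1 gene at least 25% higher, beside 17.1% of all genes. In total-read scaling 6 of the 8 were at least 25% higher, beside 41.4% of all genes. MET18 and CIA2, of the complex that docks to the target proteins, were at 1.14-fold and 1.02-fold, and CIA1, of the same complex, was the lowest at 0.857-fold.

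The metabolic iron-sulfur enzymes served as a comparison. The 10 genes of this list are ACO1, LYS4, ILV3, LEU1, BIO2, LIP5, MET5, GLT1, SDH2 and RIP1, and not all of them encode dehydratases. Of the 10 cytosolic and nuclear genes described here 0 were at least 20% lower and 1 at least 25% higher, against 9 lower and 1 higher of 10 metabolic genes, beside 17.0% lower and 17.1% higher of all genes. In total-read scaling those counts become 0 lower and 6 higher among the cytosolic and nuclear genes, against 6 lower and 1 higher among the metabolic genes, beside 5.98% lower and 41.4% higher of all genes. The median log2 change was 0.17 for the cytosolic and nuclear genes and -0.71 for the metabolic genes, 0.89 apart, a distance that no scaling alters. The lists are divided by role and not by compartment, so the 10 genes do not stand for every cytosolic iron-sulfur protein. LEU1, the isomerase of leucine synthesis and itself a cytosolic protein, had 51220 normalized reads in the paraquat library and 192803 in the untreated library, 3.76-fold lower. BIO2, biotin synthase, had 2627 normalized reads in the paraquat library and 7541 in the untreated library, 2.87-fold lower. ACO1, the mitochondrial aconitase, had 234999 normalized reads in the paraquat library and 95848 in the untreated library, 2.45-fold higher.

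Both lists covered the same range of mean levels. Of 10 equal classes of mean level, the 10 genes fell in classes 3 to 10, with a median class of 6, and the metabolic genes in classes 3 to 10 as well, with a median class of 7. Set against the median of its own class, the median gene was 0.18 higher on the log2 scale among the cytosolic and nuclear genes and stood at -0.56 among the metabolic genes. The lists were assembled with earlier results of these data known, and no test of the difference was made.

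**Figure D4:**
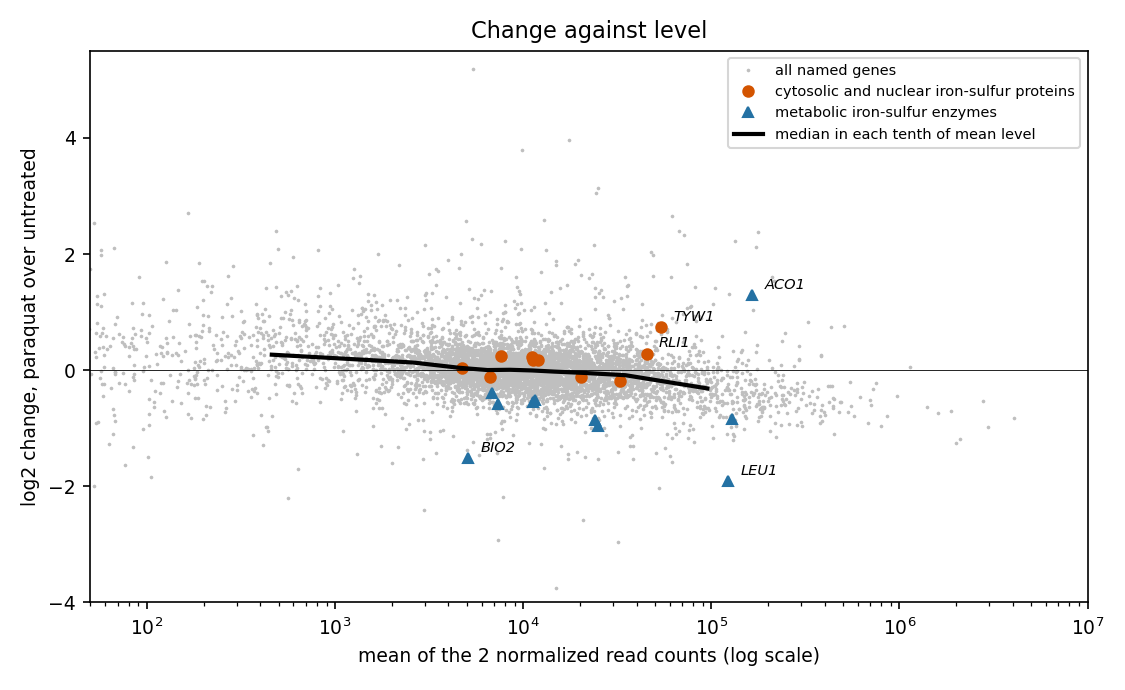
Log2 change, paraquat over untreated (vertical axis), against the mean of the 2 normalized read counts (horizontal axis, log scale) for all named genes (grey), the 10 cytosolic and nuclear iron-sulfur protein genes (orange circles) and 10 metabolic iron-sulfur genes (blue triangles), with the median of each of 10 classes of mean level as a black line. In the deposited scaling the orange circles lie between -0.19 and 0.74, and 9 of the 10 blue triangles lie between -1.91 and -0.40.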

How the data were processed

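RNA was sequenced from 1 paraquat and 1 untreated culture, grouped by the treatment in the labels. The authors deposited 1 table holding, for every gene, a normalized signal in either library. Read from the values, this signal is gene reads divided by a size factor per library, since 100% of values in each column are whole multiples of a step (0.913 for paraquat, 1.10 for untreated) within 0.01 read. The log2 column the authors deposited equals the log2 ratio of both signals within 8.38e-05. The deposited p-value columns come from the authors' test of 1 library against 1. Per the submitters' processing notes, the tools included featureCounts, Subread 1.5.2, STAR 2.5.2b, DESeq2 and Trimmomatic 0.36, without roles. The sources used here give no genome build, annotation, poly(A) selection or strand.

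Of 6143 rows, 1 without a name was left out (0.00675% of the paraquat and 0.00449% of the untreated signal). Reads were recovered as value over step. No count test was run on them, since 1 library per group leaves no residual degrees of freedom. Folds are ratios of normalized values with 95% Clopper-Pearson (exact binomial) intervals on how a gene's reads divide between libraries. PCR copies are not independent molecules, so intervals may be too narrow. Counts past a fold use genes with a mean of at least 50. Coding lengths, names and neighbours came from the RefSeq R64 gene table, which matched 5919 rows by symbol, systematic name or synonym. No RefSeq gene of that table overlaps any of the 10 genes, and near-identical copies were not searched for. No sequence or coordinate is shown, because the build of the files is not named.

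The members and lists were chosen with earlier results of these data known. A listed metabolic gene is not reported here. The genes named are the 10 members and, in each list, the highest and lowest gene, genes past 2-fold and direct partners. Further genes were named as pathway neighbours after their values were seen, and the genes of the metabolic comparison are named in full. Alternatives were total-read scaling, pseudocounts of 1 and 10, centring on the median gene, other folds, no minimum mean, means in place of medians, leaving out members, and protein-coding genes only. A comparison within classes of mean level and a metabolic median without ACO1 were added after seeing the data. The interval and step code was tested on simulated data. Scripts used scipy 1.17.1, numpy 2.4.6, matplotlib 3.10.9 and pandas 2.3.3 under Python 3.11.15.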

Additional observations from a re-analysis of the deposited data

How the results depend on the processing

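Total-read scaling moved the most values. It put ELP3 at 0.15, DPH2 at 0.072 and CHL1 at 0.14 (log2), above 0, and the medians of the RLI1 partners, nucleotide excision repair and base excision repair at 0.23, 0.20 and 0.24. It moved the median of the 10 genes to 0.43, of the modification genes to 0.32, of the DNA genes to 0.43 and of the metabolic enzymes to -0.46, and gave 6 genes at least 25% higher. That count was 2, RLI1 and TYW1, relative to the own class of mean level, a measure for which the share of all genes was not counted. Within its class, a lower change was seen in 87.3% of genes for RLI1 and in 94.8% for TYW1. A 1.5-fold mark in place of 2-fold gave 1 gene higher. As means, the modification genes stood at 0.17 and the DNA genes at 0.10. Leaving out a member gave medians from -0.11 to 0.22 for the 4 modification genes (below 0 without TYW1 or without DPH1), from 0.10 to 0.17 for the 5 DNA genes and from 0.17 to 0.18 for all 10. Without ACO1 the distance between the cytosolic and nuclear genes and the metabolic enzymes was 1.02, against 0.89 with it. Pseudocounts, centring and the minimum mean left these results on the same side, except that centring put EXO1 past the mark of 25% higher. No paired analysis was possible because there is 1 library per group.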
